A study of Mus musculus with 3 samples.

Results

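The 10 genes described here encode the 5 subunits of the transcription factor NF-kappa-B (Nfkb1, Nfkb2, Rel, Rela and Relb), the inhibitors Nfkbia, Nfkbib and Nfkbie, the ubiquitin-editing brake A20 (Tnfaip3), and the activating kinase IKK beta (Ikbkb). They were chosen by name, with earlier results of these data known. All 10 were found among the 55196 mouse genes that could be matched in every sample. NF-kappa-B is a family of dimers held in the cytoplasm by inhibitors of the I-kappa-B family. In the canonical route a kinase complex built on Ikbkb, Chuk and the scaffold Ikbkg phosphorylates the inhibitors, which are then ubiquitinated and degraded, and dimers of RelA, c-Rel and p50 enter the nucleus. In the alternative route the kinase NIK (Map3k14) and Chuk drive the processing of p100, the product of Nfkb2, so that RelB with p52 is released. Several genes of the pathway, Nfkbia and Tnfaip3 foremost, are known as targets of NF-kappa-B themselves and act as feedback brakes.

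The samples were 3 separate cultures of Ba/F3, a mouse haematopoietic line that depends on interleukin-3, and they form a single group. All were grown in RPMI with 10% fetal calf serum, penicillin and streptomycin, and 0.2 ng/mL recombinant murine interleukin-3. No genotype, treatment or time differs between them, there is no culture without interleukin-3, and the samples hold no contrast between conditions. Polyadenylated RNA was sequenced as strand-marked libraries, with 32044889 to 37180883 reads counted on genes per culture. Levels below are in CPM, a gene's reads scaled to a common sum over all genes of its culture, and a gene counts as detected at 1 or more CPM in every culture. Values with an error are mean ± SD over the cultures (n = 3). The line is often described as an early B cell, but only 2 of 11 B lineage markers were detected (Cd79a and Cd79b) and 7 had no read, among them Ebf1 and Rag1. All 5 haematopoietic and interleukin-3 receptor markers were detected. The summed level of 5 T cell markers was 0.0885 to 0.218 CPM and that of 5 fibroblast markers 0.767 to 1.06 CPM. Among 7 neutrophil and monocyte markers 2 were detected (Mpo and Csf1r), and 1 each of 3 macrophage, 3 dendritic cell and 3 endothelial markers (Adgre1, Itgax and Pecam1).

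Because several of these genes are known targets of the factor they form or restrain, their promoters were searched for the kappa-B consensus, the degenerate motif of 10 letters to which NF-kappa-B dimers bind, on both strands. RefSeq promoter windows (GRCm38.p6, 250 bases before to 50 after a start) matched 7 of the 10 genes with 10 windows. Matches were found in 5 genes: Nfkb2, Rel, Nfkbia, Nfkbie and Tnfaip3. Counted by window, 7 of the 10 windows of the 7 matched genes held a match, beside 4.51% of all 32851 promoter windows of the same length. The Nfkb2 windows at chromosome 19, 46305445 to 46305744 and 46305680 to 46305979, overlap and share the match GGGACTTTCC, which counts in both. The windows of Rela and Nfkbib held none, and Nfkb1, Relb and Ikbkb were not matched to a window. For each of the 5 genes 1 stretch is shown, as an example of its matches. Each is given 5′ to 3′ on the strand of its gene, with bases in a match in capitals, and overlapping matches on both strands run together.
Nfkbia, chr12:55492648-55492701, minus strand: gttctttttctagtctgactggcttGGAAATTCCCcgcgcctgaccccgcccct
Rel, chr11:23771026-23771086, minus strand: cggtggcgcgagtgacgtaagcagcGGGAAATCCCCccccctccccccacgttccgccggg
Nfkbie, chr17:45555569-45555628, plus strand: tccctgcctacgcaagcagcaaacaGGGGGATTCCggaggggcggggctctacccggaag
Nfkb2, chr19:46304689-46304717, plus strand: gatcgtcacGGGAATTCCCCccctcgggg
Tnfaip3, chr10:19015411-19015447, minus strand: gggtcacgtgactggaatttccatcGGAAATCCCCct

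In Nfkbia the match lay 29 to 20 bases before the RefSeq start. In Nfkb2 and Rel the capitals span 11 bases, since a stretch that matches on both strands overlaps a further match by 9 letters. The Nfkb2 window that holds the printed stretch had 4 matches in all, and 2 further Nfkb2 windows had 2 and 1. Matches were counted per strand and per window, so 1 site can count more than once. The match of the last Nfkb2 window is also a match of the window it overlaps. The Tnfaip3 window that holds the printed stretch had 2 matches, of which the one nearer the start is printed. A further Tnfaip3 window had none. The Nfkb2 stretch lies within an exon of another transcript in GENCODE M21. The Tnfaip3 stretch lies outside exons but within the span of its gene there. Neither stretch is therefore upstream of every start of its gene. A match is a description of letters and says nothing of binding in these cells.

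All 10 genes were detected, beside 19.9% of all genes and 45.9% of protein-coding genes. The genes span a wide range of read yield, from Relb at 5.07 ± 0.611 CPM to Nfkb1 at 108 ± 2.99. Their median mean level was 40.5 CPM, beside a median of 45.2 over detected protein-coding genes, and 4 of the 10 lay above that value. In bulk RNA a gene transcribed in fewer cells and one with less RNA per cell cannot be told apart, so these levels are averages over each culture.

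**Figure D1:**
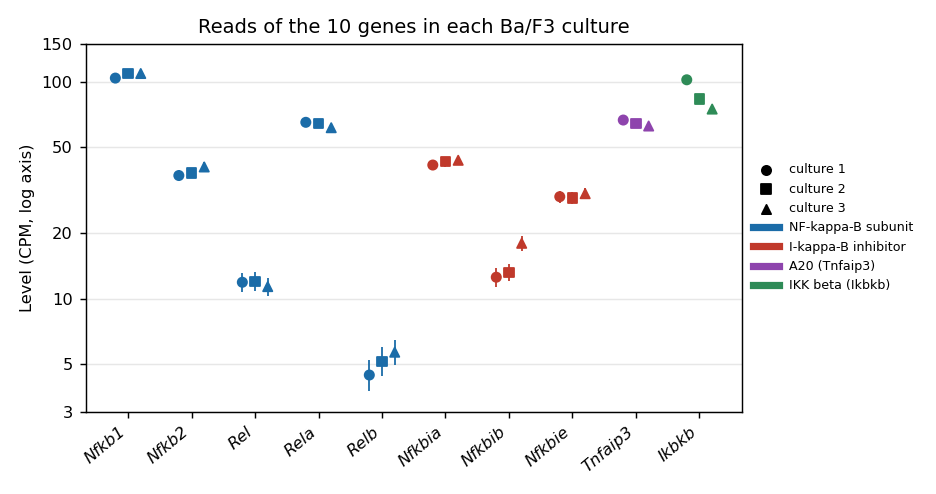
Level of each gene in CPM (log axis) in cultures 1 (circle), 2 (square) and 3 (triangle). Vertical lines are exact Poisson 95% intervals of the reads (counting error only) and colours mark the role of the protein. Nfkb1 and Ikbkb were read most and Relb least; culture 3 stands above the others for Nfkbib and culture 1 for Ikbkb.

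Among the subunits, Nfkb1, which encodes p105 and its product p50 (chromosome 3, 135584655 to 135691547, minus strand), was read at 104, 109.5 and 109.5 CPM in cultures 1, 2 and 3. Rela, the gene of the main transactivating subunit p65 (chromosome 19, 5637483 to 5648130, plus strand), was read at 65.2, 64.3 and 61.5 CPM, a mean of 63.7 ± 1.90. The 3 cultures lay close together for both genes. Nfkb2, which encodes p100 and p52 of the alternative route (chromosome 19, 46304320 to 46312385, plus strand), was read at 37.0, 38.0 and 40.5 CPM, or a mean of 38.5 ± 1.82. Rel, which encodes c-Rel, the subunit best known from lymphocytes (chromosome 11, 23736847 to 23770970, minus strand), was low at 11.9, 12.0 and 11.3 CPM, or 11.7 ± 0.342. Relb, the partner of p52 (chromosome 7, 19606217 to 19629438, minus strand), was the lowest of the 10 genes at 4.43, 5.14 and 5.65 CPM. Its culture 1 value was the lowest, but it rests on 142 reads, against 174 and 210 in cultures 2 and 3.

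The inhibitor genes also stood at unequal levels. Nfkbia, which encodes I-kappa-B alpha, the fast feedback inhibitor (chromosome 12, 55489410 to 55492647, minus strand), was read at 41.4, 42.8 and 43.5 CPM, a mean of 42.6 ± 1.09. Nfkbie, which encodes I-kappa-B epsilon, a slower feedback inhibitor (chromosome 17, 45555703 to 45563169, plus strand), was read at 29.6, 29.1 and 30.5 CPM. Neither gene set any culture apart from the others. Nfkbib, which encodes I-kappa-B beta (chromosome 7, 28758251 to 28767512, minus strand), was read at 12.5, 13.2 and 18.0 CPM, so culture 3 stood above the other two. Tnfaip3, whose product A20 removes and edits ubiquitin chains upstream of the IKK complex (chromosome 10, 19000910 to 19015657, minus strand), was at 66.8, 64.5 and 62.7 CPM, or 64.6 ± 2.06. Its read yield was thus close to that of Rela. Ikbkb, the catalytic kinase of the canonical route (chromosome 8, 22659212 to 22706589, minus strand), was read at 102, 83.5 and 75.0 CPM, or 87.0 ± 14.1, with culture 1 above both others.

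Levels of different genes compare only per length, and here the length chosen mattered. Dividing CPM by the kilobases of all merged exons gave levels per length (RPKM) of 26.4 ± 0.676 for Nfkbia, 20.7 ± 0.619 for Rela, 8.94 ± 0.248 for Nfkb1 and 4.56 ± 0.737 for Ikbkb. The merged exons of Nfkb1 (12061 bases over 10 transcripts) are 2.93 times as long as its longest coding transcript (4117 bases), and those of Ikbkb (19078 bases over 14 transcripts) 4.80 times (3977 bases). For the other 8 genes that ratio was 1 for Rel and up to 1.76 for Relb. With the longest coding transcript, a length added after the merged lengths were seen, the levels were 27.0 ± 0.689 RPKM for Nfkbia, 26.2 ± 0.727 for Nfkb1, 23.4 ± 0.700 for Rela and 21.9 ± 3.53 for Ikbkb. Nfkbia led by both lengths. Rel (1.57 RPKM by either length) and Relb (1.31 by merged exons, 2.30 by the coding transcript) were last by both, in opposite order.

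**Figure D2:**
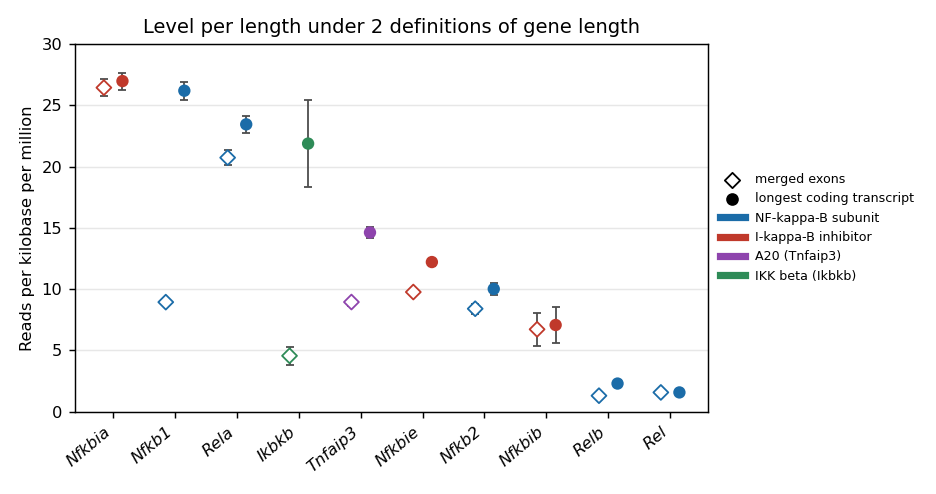
CPM per kilobase (RPKM) for each gene, mean with SD over 3 cultures, using merged exons (open diamonds) or the longest coding transcript (filled circles). Nfkb1 moves from 8.94 to 26.2 and Ikbkb from 4.56 to 21.9 between the lengths, while Nfkbia, Nfkbib and Rel hardly move.

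In the order by merged exons, the 3 cultures of Nfkbia all lay above those of Rela (ratio 1.28 ± 0.0693), and those of Rela above those of Nfkbie (2.12 ± 0.108). Tnfaip3, Nfkb1 and Nfkb2, at 8.95, 8.94 and 8.40 RPKM, overlapped in their cultures, each with the next in the order, and Nfkb2 overlapped also with Nfkbib (6.72 ± 1.37). Tnfaip3 lay below Nfkbie without overlap. Within cultures Tnfaip3 stood at 0.955 to 1.07 times Nfkb1, while Nfkb1 exceeded Nfkb2 in each, by 1.03 to 1.10 times (1.06 ± 0.0348). Nfkbib lay above Ikbkb in every culture, and Ikbkb above Rel by 2.90 ± 0.419 times. In the order by coding transcript, Nfkbia and Nfkb1 overlapped, as did Rela and Ikbkb. Within cultures Nfkbia exceeded Nfkb1 in each, by 1.03 ± 0.00933 times, while Rela lay on both sides of Ikbkb (1.09 ± 0.139 times). Tnfaip3 (14.6 ± 0.466 RPKM), Nfkbie (12.2 ± 0.288), Nfkb2 (10.0 ± 0.473) and Nfkbib (7.07 ± 1.44) then followed with no overlap between neighbours. No p is given for these neighbours, since 3 cultures are too few for an exact test to pass 0.05.

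Within each culture the 5 subunit genes were set against their sum per length. By merged exons Rela made up 52.2%, 50.8% and 48.9% of the sum in cultures 1, 2 and 3 (50.6 ± 1.62%), Nfkb1 21.8 ± 0.493%, Nfkb2 20.5 ± 0.948%, Rel 3.84 ± 0.110% and Relb 3.19 ± 0.374%. By the longest coding transcript the leading gene was Nfkb1 with 41.2 ± 0.625%, followed by Rela with 36.9 ± 1.45% and Nfkb2 with 15.8 ± 0.636%. Rel (2.48 ± 0.0862%) and Relb (3.61 ± 0.398%) stayed minor. Rela exceeded Rel 13.2 ± 0.144 times by merged exons and 14.9 ± 0.163 times by coding transcripts. In the alternative route Nfkb2 exceeded its partner gene Relb 6.48 ± 0.530 and 4.39 ± 0.359 times by the 2 lengths.

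Of the 3 inhibitor genes summed per length, Nfkbia made up 61.7 ± 1.79%, Nfkbie 22.8 ± 0.742% and Nfkbib 15.6 ± 2.36% by merged exons. By coding transcripts the shares were 58.4 ± 1.67%, 26.4 ± 0.834% and 15.2 ± 2.31%. The Nfkbib share was 14.0%, 14.4% and 18.3% in cultures 1, 2 and 3 by merged exons, so that culture 3 stood apart here too. The summed inhibitor genes stood at 1.01, 1.02 and 1.11 times the summed subunit genes in cultures 1, 2 and 3 by merged exons, a mean of 1.05 ± 0.0519. By coding transcripts the mean was 0.728 ± 0.0314. Whether transcripts of these 3 inhibitor genes or of the subunit genes were more abundant therefore depended on the length used. Nfkb1 and Nfkb2 were counted as subunits only.

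Spread between the cultures was tested gene by gene against counting noise, with a chi-square test of Poisson heterogeneity over all 13139 genes with a mean of at least 10 reads and Benjamini-Hochberg adjustment. This compares the libraries and not conditions. The test called 2 of the 10 genes at an adjusted p under 0.05, beside 32.7% of all genes tested, so the members' share was not above the background. Ikbkb was called with a highest to lowest ratio of 1.37 (adjusted p = 1.1e-32, chi-square test) and Nfkbib with 1.43 (adjusted p = 6.8e-09, chi-square test). Under noise widened to a common negative binomial dispersion over all genes (a coefficient of variation of 7.05% beyond counting), neither passed: the chi-square test gave adjusted p = 0.142 for Ikbkb and 0.0636 for Nfkbib, with 0 of 10 genes called beside 3.65% of all genes. With no adjustment, 2 of the 10 genes (Ikbkb and Nfkbib) lay under 0.05 in that test, beside 9.73% of all genes.

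The Nfkbib call rested on culture 3, without which the chi-square test gave an adjusted p of 0.692. Ikbkb was called by the chi-square test without any one culture, with adjusted p from 3.2e-32 to 0.00129. Exons of Nfkbib overlap those of Sirt2 on the other strand by 42 bases, and Sirt2 stood at 61.2, 64.0 and 59.8 CPM, lowest in culture 3, where Nfkbib was highest; its part in the result was not tested. The overlap of Nfkbib with Ccer2 is 314 bases, and Ccer2 had at most 0.0312 CPM in any culture. Nfkb2 shares 531 exon bases with an antisense transcript (7.93 CPM) and 299 with Psd (24.9 CPM). The strand setting of the counting is not given in the sources used here, so reads of Nfkb2 and of those genes cannot be told apart there.

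**Figure D3:**
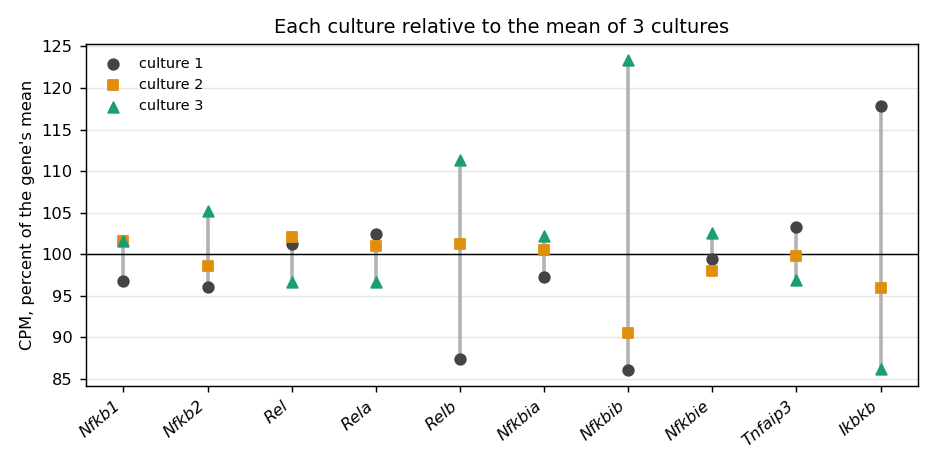
CPM of each culture as a percent of the gene's mean over the 3 cultures. Culture 3 is at 123% for Nfkbib and culture 1 at 118% for Ikbkb; Nfkb1, Rel, Rela, Nfkbia, Nfkbie and Tnfaip3 stay between 96.6% and 103% in every culture.

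The other 8 genes were not called. Their adjusted p in the chi-square test ran from 0.120 for Nfkb2 to 0.804 for Rel. Library sizes were also taken by trimmed mean of M values and by median of ratios. With these, Nfkb1 (adjusted p = 0.0163 and 0.0173) and Nfkb2 (0.0284 and 0.0400) passed the chi-square test as well. Their highest to lowest ratios of 1.05 and 1.10 are in CPM by column sums and not under these scalings. Under either scaling 34.3% of all genes were called. For Rel, Nfkbia and Nfkbie the coefficient of variation over the cultures (2.91%, 2.56% and 2.36%) was no larger than that of counting alone (4.99%, 2.62% and 3.13%). Relb had a ratio of 1.27 but few reads, with a coefficient of variation of 12.0% against 7.59% from counting, and its missing call does not show that it was steady. The median over the 10 genes of the highest minus the lowest log2(CPM + 1) was 0.086, beside 0.12 over all detected genes. A ratio of at least that of Nfkbib was reached by 6.42% of detected genes, and one of at least that of Ikbkb by 8.39%.

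**Figure D4:**
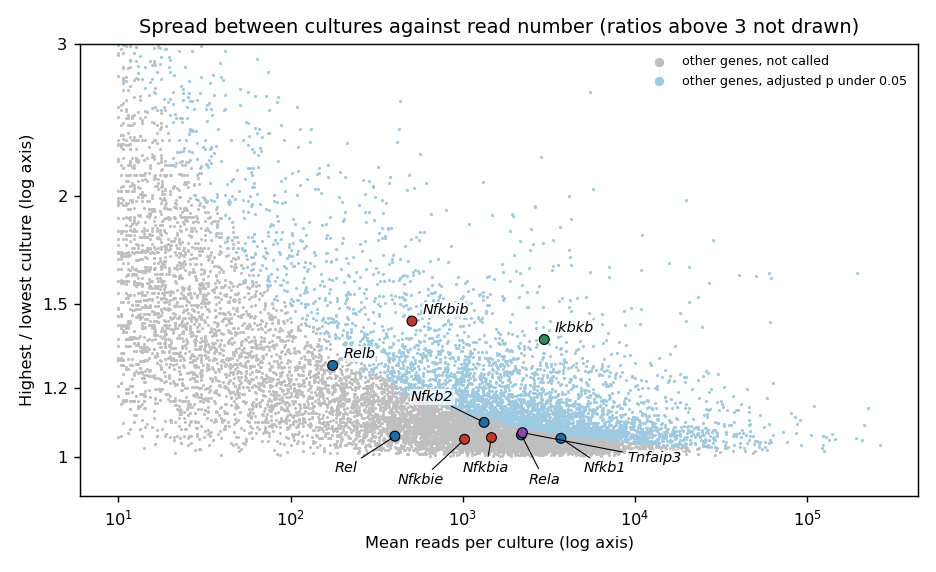
Ratio of the highest to the lowest culture against mean reads per culture (both log axes) for all genes tested, with 101 genes above a ratio of 3 not drawn. Blue points passed the chi-square test; Nfkbib (1.43) and Ikbkb (1.37) lie among them, and the other 8 labelled genes were not called.

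Around these 10 genes, other genes of the pathway were counted list by list. Of 126 other genes on the lists, 82 were detected (65.1%, beside 45.9% of protein-coding genes). In the I-kappa-B family the atypical nuclear members Nfkbiz (13.1, 6.97 and 7.10 CPM) and Nfkbid (8.02, 4.55 and 4.87 CPM) were detected, both highest in culture 1. Bcl3, the nuclear partner of p50 and p52, was at 0.0624, 0.118 and 0.0807 CPM, near the limit that 3 reads set (0.0807 to 0.0936 CPM by culture). The chi-square test called Nfkbiz (ratio 1.88, adjusted p = 6.5e-19) and Nfkbid (ratio 1.76, adjusted p = 8.0e-09). Both also passed with the common dispersion (adjusted p = 3.0e-06 and 0.00128, chi-square test). Without culture 1 neither passed the chi-square test against counting noise alone (adjusted p = 0.935 and 0.778).

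Of 13 genes of the IKK complex and related kinases, 12 were detected, and the chi-square test called 8 of the 13, beside 32.7% of all genes. With the common dispersion no gene of this list was called, and the lowest adjusted p among them in the chi-square test was 0.142, for Ikbkb. Ikbkb was accompanied by its partner kinase Chuk at 91.2, 79.6 and 80.0 CPM and by the scaffold Ikbkg, also called NEMO, at 87.2, 80.4 and 82.9 CPM, both highest in culture 1. Per length Ikbkb stood at 0.277 ± 0.0250 times Chuk by merged exons and 0.913 ± 0.0824 times by coding transcripts, so again the length decided how the catalytic kinases compared. Map3k14, the NIK gene of the alternative route, was low at 5.59, 5.76 and 6.13 CPM. Tab2, an adaptor of the kinase TAK1, led this list per length at 40.2 RPKM by merged exons, followed by Map3k3 (18.3) and Chuk (16.4). Map3k8 averaged 1.06 CPM with culture 2 below the threshold.

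Ubiquitin ligases and adaptors were detected for 23 of 24 genes, and deubiquitinases and other brakes for 15 of 16. The chi-square test called 5 of 24 and 5 of 15 tested, beside 32.7% of all genes. The ligase subunits Skp1a and Cul1, which form the SCF complex that marks phosphorylated I-kappa-B, stood at 218 ± 4.63 and 153 ± 0.877 CPM, and the Toll and interleukin-1 receptor kinase gene Irak1 at 243 ± 7.98. Ube2v1 averaged 0.464 CPM. Among the brakes, Tax1bp1, an adaptor of A20, was the most abundant at 1277 ± 43.2 CPM, and Irak3, the decoy kinase of Toll receptor signalling, stood at 309 ± 13.2. Rnf11, a ligase that works with A20, was at 92.9 ± 1.61 CPM, and Tnip3 had 0.0399 on average.

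**Figure D5:**
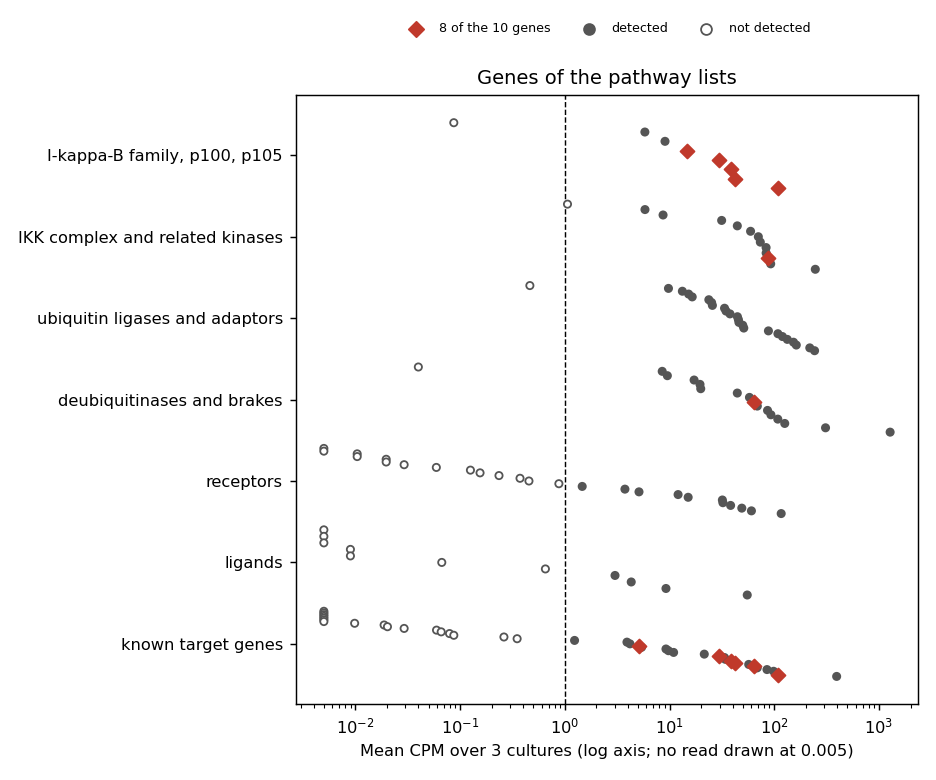
Mean CPM over 3 cultures (log axis) for every gene of 7 lists, with the 8 of the 10 genes that stand on a list (not Rel and Rela) as red diamonds, other detected genes filled and undetected genes open; the dashed line is 1 CPM. At most 1 gene lies left of the line or short of it in some culture in each of the inhibitor, kinase, ligase and brake lists, while receptors, ligands and target genes spread over both sides.

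Of the receptor genes 11 of 25 were detected, and of the ligand genes 4 of 11. The TNF receptor gene Tnfrsf1a (116 ± 2.45 CPM), the lymphotoxin beta receptor gene Ltbr (49.0 ± 1.11) and Tnfrsf9, the 4-1BB gene (60.5 ± 1.72), led the receptors per length. Cd40 and Tlr5 had no read, which allows up to 0.0807 to 0.0936 CPM by culture, and Il1rl1 averaged 0.0104. Ltb, the lymphotoxin beta gene, stood at 49.4, 54.5 and 61.5 CPM, and Tnf at 11.7, 8.97 and 7.07 CPM. Tnf was called by the chi-square test (ratio 1.65, adjusted p = 2.5e-08) and also with the common dispersion (0.0161). Tnfsf14 stood at 3.01 ± 0.210 CPM, and Cd40lg, Tnfsf11 and Il1a had no read.

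Of 39 known target genes, 22 were detected and 7 had no read. These include 6 of the 10 genes themselves: Nfkb1, Nfkb2, Relb, Nfkbia, Nfkbie and Tnfaip3. Myc (394 ± 9.67 CPM), the stress gene Ier3 (85.2 ± 4.93) and the AP-1 gene Junb led per length. Vcam1, Ccl20 and Cxcl1 had no read. Junb, which many other pathways also induce, stood at 81.6, 89.1 and 136 CPM, highest in culture 3, and was called by the chi-square test (ratio 1.66, adjusted p = 2.9e-126, and 2.2e-05 with the common dispersion).

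Of the 89 other pathway genes with enough reads, 28 were called by the chi-square test (31.5%, beside 32.7% of all genes). Culture 1 was the highest for 20 of those 28, culture 2 for 3 and culture 3 for 5. Among all 4303 genes called, culture 1 was the highest for 50.5%. Whether the pathway genes differ from all genes in this was not tested.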

How the data were processed

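Polyadenylated RNA of 3 Ba/F3 cultures was measured. Single reads of 50 bases were aligned by the authors to GRCm38 using HISAT2, a pair of names that the submitters' processing notes give too, and counted by their program GenSum, according to the series' design text. The sources used here give no versions. Each deposited log2 value is that of 1 plus the gene's reads scaled to a column sum of 10000000. Whole reads were recovered for 100% of entries (tolerance 0.01). Cultures 1 and 2 follow the gene identifiers, and culture 3 the symbols and coordinates, so they were joined through GENCODE M21 (GRCm38), by coordinates for 54916 rows and by symbol for 345, with 225 unmatched. The authors' average mixes genes and gives no level here.

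Reads were scaled to column sums (as CPM) and divided by merged exon length. Heterogeneity was tested by chi-square with Benjamini-Hochberg adjustment in Python 3.11.15 with scipy 1.17.1. The test was tested on simulated data. The deposited unit is log2, and the test ran on the reads recovered from it. No count package was used. Reads carry no molecular identifiers, and limits and intervals cover counting error only.

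The members and lists were chosen with earlier results of these data known. Named genes were the 10 members, the I-kappa-B family, Chuk, Ikbkg and Map3k14, the 3 detected genes highest per length and up to 3 undetected genes lowest in CPM of each other list, and called genes with a ratio above 1.5; other named genes were chosen after their values were seen. With 3 cultures, no genes of like pattern were ranked. Genes of 1 pathway list enter the counts but are not reported here by name.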

Additional observations from a re-analysis of the deposited data

How the results depend on the processing

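All 10 genes were detected under every alternative except a threshold of 5 CPM, which left 9. The count of the 10 genes called different between cultures, 2 in the report, was 4 by trimmed mean of M values, 4 by median of ratios (34.3% of all genes under either) and 0 with a common negative binomial dispersion (3.65%). It ranged from 1 to 2 when each culture was left out (1 without culture 3), while the share of all genes called was 11.1%, 29.5% and 20.2% without cultures 1, 2 and 3, against 32.7% with all. On the rows as deposited, where culture 3 holds the reads of another gene, it was 2 (30.3% of all genes), but with Tnfaip3 in place of Nfkbib. The Rela share of the subunit sum, 50.6% by merged exons, was 37.5% by the longest transcript, 36.9% by the longest coding transcript and 28.1% with no length correction. The Nfkbia share of the inhibitor sum, 61.7%, was 58.4% by the longest coding transcript and 49.0% with no length correction. The ratio of inhibitor to subunit genes, 1.05, was 0.702, 0.728 and 0.383 by the longest transcript, the longest coding transcript and no length correction. Leaving out a culture moved these 3 values within 49.9 to 51.5%, 61.0 to 62.7% and 1.02 to 1.07. The median log2 range over the cultures, 0.086, was 0.087 and 0.081 with pseudocounts of 0.1 and 5. It was 0.068, 0.086 and 0.049 without cultures 1, 2 and 3, and a range over fewer cultures cannot be larger. The 5 genes with a kappa-B match stayed 5 with a wider consensus, which can only add matches, or a window of 150 bases. Of their 10 windows with those of Rela and Nfkbib, 7 matched with the wider consensus and 5 with the shorter window, against 7. The share of all promoter windows with a match was 11.2% and 2.38% under these settings, against 4.51%. Pathway genes detected, 90 in all, ranged from 79 to 92. No paired analysis was possible because the samples form a single group. Depth limits Relb, Rel and Nfkbib most.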

Other observations

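In the authors' deposited table the row that carries the symbol of each of the 10 genes carries the identifier of another gene, for example Gnpat on the Nfkb1 row, Erap1 on the Ikbkb row and Pura on the Rela row. The authors' average in the deposited table, taken on those symbol rows and turned to CPM, was 0.940 (Ikbkb) to 1.04 (Nfkbib) times the mean over the matched cultures. Nfkbib differed between the cultures when matched by gene (chi-square test, adjusted p = 6.8e-09) and was not called on the row of its identifier as deposited (chi-square test, adjusted p = 0.333). Tnfaip3 was not called when matched (chi-square test, adjusted p = 0.215) and was called on the row of its identifier as deposited (chi-square test, adjusted p = 0.0274). Those identifier rows carry the symbols Oip5 for Nfkbib and Mysm1 for Tnfaip3, which culture 3 follows. The values on the deposited rows therefore do not compare a single gene across the cultures.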
